A study of Saccharomyces cerevisiae with 6 samples.

Results

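Splice junctions of budding yeast were examined at one kind of alternative 3′ splice site (3′SS), an AG-ending trinucleotide that lies downstream of the annotated 3′SS, so that splicing to it removes bases of the exon together with the intron. A junction belonged to this set when its 5′ splice site was the annotated one, its 3′ end lay downstream of the annotated end along the transcript, its last letters were AG, and the longest mismatch-free overhangs of its reads over the 6 libraries reached 10 bp upstream and 40 bp downstream. The rule uses no change between strains. It found 494 sites of the 1835 alternative 3′SS and 4993 alternative junctions listed, and they lay in 199 introns of 193 genes. Before the overhang minimum there were 555. The sites nearest to the limit inside it had overhangs of 41 to 43 bp downstream, as in *RPS0B* at 32 nt, or of 10 or 11 bp upstream, and those nearest outside it had 37 to 39 bp downstream, as in *SUS1* at 60 nt, or 9 bp upstream.

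The tested strain was *prp18Δupf1Δ* (3 libraries, prp18-delta::kanMX6 with upf1-delta::HIS3MX6) and its reference was *upf1Δ* (3 libraries, upf1-delta::HIS3MX6). Both were BY4741 haploid cells grown in the rich medium YPD, seeded at an OD600 of 0.05 and collected in exponential growth at an OD600 of 0.6. Both lacked Upf1p, the helicase of nonsense-mediated decay (NMD), so the comparison holds for cells in which NMD is off and does not show these transcripts in cells with NMD. Neither *PRP18* nor *UPF1* holds an intron, so the junction tables cannot check the deletions. The sources do not say whether the 3 libraries of a strain came from separate cultures, and the p values below therefore measure the spread between libraries only.

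In yeast the 3′SS is chosen in the second step of splicing, when the 5′ exon is joined to the base after an AG downstream of the branch point. The sequences YAG (CAG and TAG in the DNA) are the consensus, AAG is used more rarely, and GAG is the AG trinucleotide that spliceosomes use least. Prp18p is a second-step factor that binds Slu7p and contacts Prp8p near the catalytic centre. A 3′SS beyond the annotated one shortens the exon, and where the distance is not a multiple of 3 it shifts the reading frame.

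The sites differed in how close they lay to the annotated 3′SS and in their first letter, and the sequences show how little distinguishes the nearest of them from it. Each sequence below is read along the transcript from 15 bases before the end of the annotated intron to 10 bases (6 in *MTR2*) after the alternative site. It is taken from the R64 genome, with 1-based coordinates, and the capitals mark the annotated 3′SS and the alternative one. The first set holds GAG sites at 2 nt, where the exon begins with AG and both trinucleotides share their letters.

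*UBC4* GAG (chrII:407016-407042, minus strand): atgctattgaacTAGAGatccacctac
*UBC5* GAG (chrIV:569622-569648, minus strand): aacttttttccgAAGAGatcctcctgc
*ACT1* GAG (chrVI:54366-54392, minus strand): atattatatgttTAGAGgttgctgctt
*RPS19A* GAG (chrXV:92429-92455, minus strand): ttttgttttctaCAGAGacgttgctgc
*RPS19B* GAG (chrXIV:62361-62387, minus strand): cattttttcaatTAGAGacgttgcagc
*RPL37A* GAG (chrXII:523014-523040, plus strand): tttctttttaaaTAGAGggtactcctt
*RPL37B* GAG (chrIV:1450446-1450472, minus strand): tttcattttaaaCAGAGggtactcctt
*SAC6* GAG (chrIV:715236-715262, minus strand): ctcttctgcgatTAGAGaaaatttcca

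The second set holds sites at 3 to 9 nt, among them the GAG site of *RPS9B*, which follows the annotated TAG directly, and the 2 TAG sites of the *RPL23* copies. All of those shown were used more in *prp18Δupf1Δ* relative to the annotated 3′SS, and some of the sites with the most reads are among them. Sites at these distances without a detectable change, such as the TAG of *YIL156W-B* at 4 nt with 406 reads, are not shown.

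*RPS9B* GAG (chrII:604913-604940, plus strand): ctttttttttttTAGGAGctccaagaac
*RPL24B* AAG (chrVII:787774-787801, minus strand): agctttttaattTAGAAGaacaatgaag
*SAR1* CAG (chrXVI:138850-138878, plus strand): tattttactgtaCAGtCAGagatgtgttg
*RPL23A* TAG (chrII:60180-60208, minus strand): atcttttttaacTAGtTAGgtctaccagt
*RPL23B* TAG (chrV:397267-397295, plus strand): attttttttaaaTAGtTAGgtttaccagt
*RPL16B* AAG (chrXIV:494510-494539, minus strand): ctccttttattaTAGctAAGgatcatttgt
*LSM7* CAG (chrXIV:351039-351070, plus strand): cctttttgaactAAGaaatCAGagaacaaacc
*DID4* AAG (chrXI:437891-437923, plus strand): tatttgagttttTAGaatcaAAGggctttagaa
*MTR2* CAG (chrXI:93297-93326, minus strand): ccaaactaataaCAGtaataaCAGaaatat

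The third set holds sites that were used less in *prp18Δupf1Δ*. For the site of *NBL1* the annotated 3′SS is shown too. For the others, which lie 95 to 146 nt into the exon, only the alternative 3′SS is in capitals, with the 12 bases before it and the 10 after it.

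*NBL1* CAG (chrVIII:498698-498734, minus strand): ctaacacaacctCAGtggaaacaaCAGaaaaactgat
*RPS0B* TAG (chrXII:242761-242785, plus strand): ggttttggctgcTAGaattattgct
*RPS0B* CAG (chrXII:242812-242836, plus strand): tgccatctcttcCAGaacctacggt
*TDA5* AAG (chrXII:987325-987349, plus strand): cttcgtgaatttAAGaatggcatag
*TDA5* TAG (chrXII:987335-987359, plus strand): ttaagaatggcaTAGttcttattac

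The 6 libraries held 791819 to 1250953 annotated junction reads in *prp18Δupf1Δ* and 1347936 to 1502384 in *upf1Δ*. The 494 sites took 1790 to 2321 reads in *prp18Δupf1Δ* libraries and 1689 to 2049 in *upf1Δ* libraries. Reads were thinly spread, since 118 of the 494 sites had a single gapped read over all libraries. The libraries of *upf1Δ* were deeper and each listed more of the sites (260 to 281, against 191 to 206 in *prp18Δupf1Δ*), although the sites took a smaller share of the reads there. They took 1855, 2312 and 2261 reads per 1000000 annotated junction reads (RPM) in *prp18Δupf1Δ* and 1253, 1316 and 1364 RPM in *upf1Δ*.

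Of the 494 sites, 445 lay in the next coding exon, 17 in a 5′ leader before the coding sequence, 7 ended a leader intron inside the coding sequence and 23 lay beyond the end of the next coding exon, where the term exonic does not describe them by the coding annotation used. The remaining 2 had another place. The distance was a multiple of 3 at 161 sites and was not at 333. In the 445 sites of coding exons, the reading frame was shifted at 307, kept without a new stop codon at 136 and kept with a stop codon at the junction at 2. Of the 303 frame-shifted sites whose stop was found, the shifted frame met it after a median of 8 codons, and within 30 codons at 269.

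Usage was measured as the fraction of annotated splicing (FAnS), the reads of the junction over the reads of the annotated junction of the same intron, given here as a percentage. The change was tested on the read counts by edgeR's quasi-likelihood test with Benjamini-Hochberg adjustment over all 884 alternative junctions that passed the filters, at a threshold of 0.05. Of the 494 sites, 202 passed the read filters and were tested, 291 had fewer than 6 gapped reads and 1 failed the mismatch filter. The minimum of 6 gapped reads counted both strains together, so a site could be tested on the reads of 1 strain. FAnS rose at 44 sites (21.8% of those tested) and fell at 20 (9.90%). Over all 884 junctions 21% rose and 10.7% fell, so that the sites as a set changed about as often as alternative junctions in general. Among the 562 alternative 3′SS tested 32% rose and 7.65% fell. The median log2 fold change of the 202 sites was -0.004, and 0 when the 28 sites at 0 in every *prp18Δupf1Δ* library and the 4 at 0 in every *upf1Δ* library were set to the bound that 3 counts in the strain allow. The strains did not overlap at 56 sites in which every *prp18Δupf1Δ* library was higher (27.7%) and 45 in which every one was lower (22.3%), against 24.4% and 18.8% of all alternative junctions.

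This balance held opposite changes that followed the first letter of the site and its distance. At GAG sites, 17 of the 18 tested rose and none fell, with a median log2 change of 3.39 (3.31 with the sites at 0 in a strain set to their bound). The exception, in *ATG38* at 18 nt, had 0, 0 and 0 reads in *prp18Δupf1Δ* and 1, 1 and 2 in *upf1Δ*. Of the 37 GAG sites only these 18 were tested, and many met the read minimum mainly through *prp18Δupf1Δ*. *UBC4* had 112 reads in *prp18Δupf1Δ* and 1 in *upf1Δ*, and *RAD14* 6 and 0, whereas *RPS19B* had 177 and 28. The share of GAG rises thus depends on a filter that such sites passed through the strain where they are high. At AAG sites 13 of 86 rose and 8 fell (15.1% and 9.30%), at CAG sites 8 of 54 rose and 8 fell (14.8% each) and at TAG sites 6 of 44 rose and 4 fell (13.6% and 9.09%), with medians of -0.09, -0.34 and -0.15. The groups by letter were described by their counts and not tested against each other. Without each library in turn 14 to 15 GAG sites passed, and 7 when only junctions with a single possible position were kept, as many as there were to test.

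**Figure D1:**
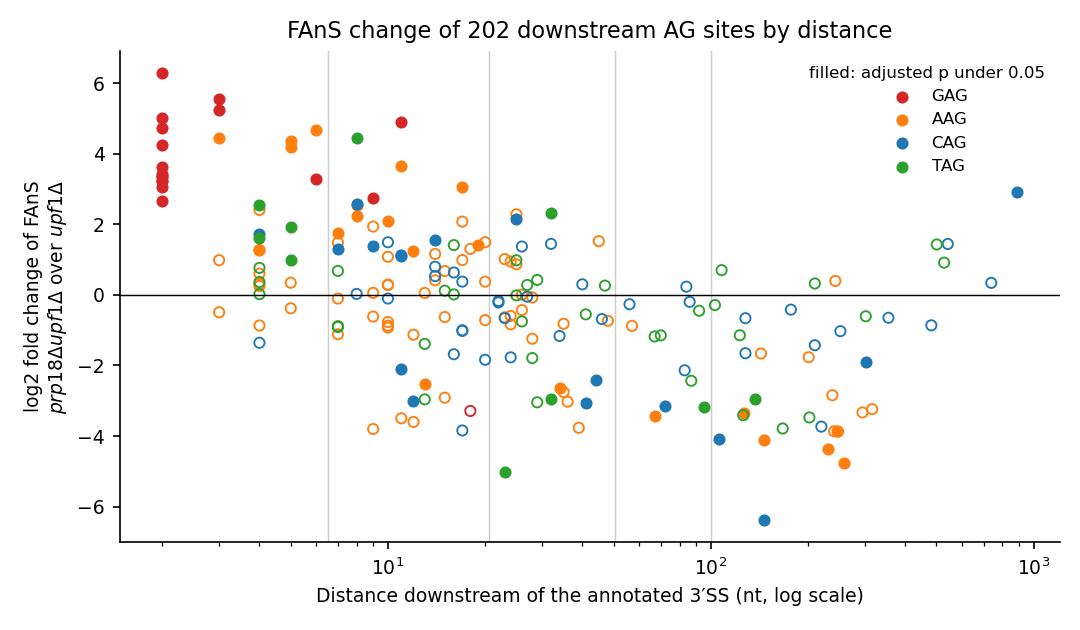
The log2 fold change of FAnS in *prp18Δupf1Δ* over *upf1Δ* (y axis) against the distance downstream of the annotated 3′SS in nt (x axis, log scale) for the 202 tested sites, coloured by trinucleotide. Filled points passed the adjusted p threshold of 0.05, and grey lines separate the distance classes; the sites at 2 nt are all GAG and all rose, and beyond 100 nt 9 sites fell and 1 rose.

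The libraries showed the same order when all reads of a class were summed, including those of the sites with too few reads to test. GAG sites took 273, 352 and 341 RPM in *prp18Δupf1Δ* and 23.0, 21.7 and 19.3 in *upf1Δ*. These were sums over 37 sites, of which 23 to 27 were seen in each *prp18Δupf1Δ* library and 13 to 14 in each *upf1Δ* library, despite the greater depth of *upf1Δ*. AAG sites took 724, 916 and 870 RPM in *prp18Δupf1Δ* and 435, 460 and 503 in *upf1Δ*, and TAG sites 416, 462 and 447 in *prp18Δupf1Δ* and 317, 333 and 321 in *upf1Δ*. The AAG reads numbered 906, 825 and 689 in *prp18Δupf1Δ* and 586, 657 and 756 in *upf1Δ*. Of these, *RPL24B* held 250, 209 and 157 in *prp18Δupf1Δ* and 16, 18 and 27 in *upf1Δ*. *DID4* held 225, 209 and 150 in *prp18Δupf1Δ* and 41, 37 and 22 in *upf1Δ*. The AAG difference thus rested largely on these sites, and the class was not summed without them. At CAG sites the strains overlapped, with 442, 583 and 602 RPM in *prp18Δupf1Δ* and 479, 501 and 521 in *upf1Δ*.

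FAnS was also summed, a sum in which introns with few annotated reads can weigh heavily. The sites together reached 11.4, 11.3 and 11.1 annotated equivalents in *prp18Δupf1Δ* and 6.46, 7.43 and 6.50 in *upf1Δ*. GAG sites contributed 0.462, 0.532 and 0.424 in *prp18Δupf1Δ* and 0.028, 0.025 and 0.035 in *upf1Δ*. A large part of the GAG sum in *prp18Δupf1Δ* came from *IWR1* at 11 nt, an intron with few annotated reads there. FAnS of this GAG was 27.3, 16.7 and 15.4% in *prp18Δupf1Δ* and 0.643, 0.637 and 0.538% in *upf1Δ*. CAG sites contributed 6.22, 6.34 and 6.58 in *prp18Δupf1Δ* and 3.31, 3.13 and 2.77 in *upf1Δ*. Most of that CAG sum and of its difference between the strains, and a large part of the sum over all sites, came from 1 intron, that of *MTR2* described below. FAnS of its CAG was 500, 530 and 538% in *prp18Δupf1Δ* and 219, 204 and 179% in *upf1Δ*. The sums of AAG and TAG sites overlapped between the strains.

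**Figure D2:**
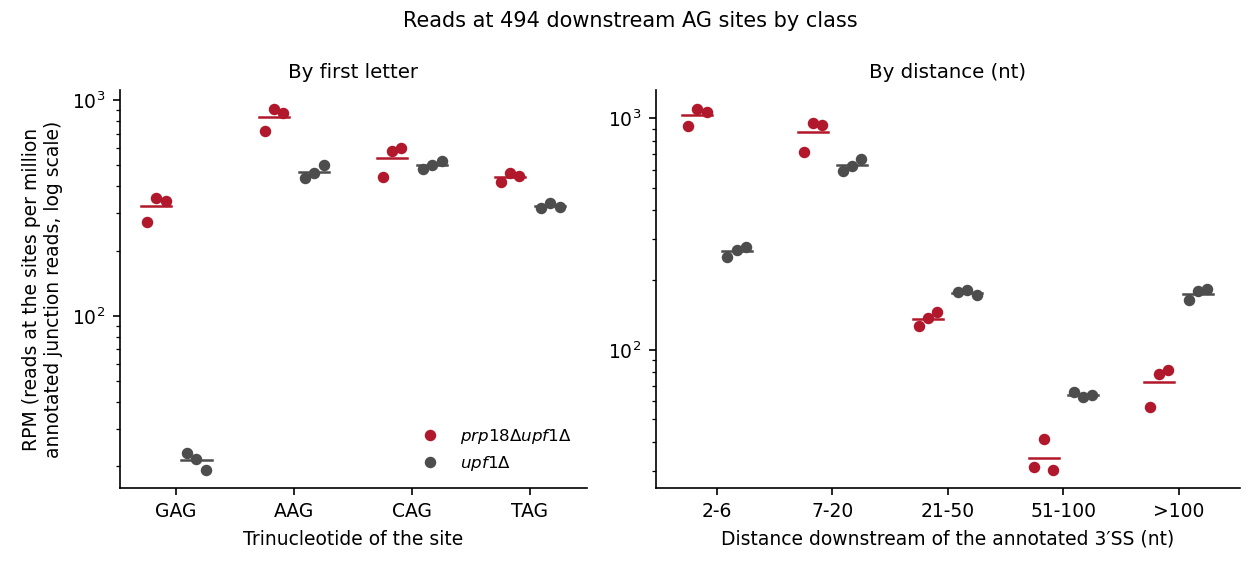
RPM at the 494 sites (y axis, log scale), by trinucleotide (left) and by distance class in nt (right), with 1 point per library, *prp18Δupf1Δ* left of *upf1Δ*, and lines at the means of 3 libraries. GAG sites and sites at 2 to 6 nt lie higher in every *prp18Δupf1Δ* library, and sites beyond 50 nt lie lower.

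By distance, the changes ran from rises near the annotated 3′SS to falls far from it. At 2 to 6 nt, 25 of the 39 tested sites rose and none fell (64.1%, median log2 change 2.54, and 1.94 with sites at 0 set to their bound). At 7 to 20 nt, 16 of 70 rose and 3 fell (22.9% and 4.29%), with a median of 0.33. At 21 to 50 nt, 2 of 43 rose and 5 fell (4.65% and 11.6%), with a median of -0.55. At 51 to 100 nt, 0 of 12 rose and 3 fell (25%). Over all 884 alternative junctions 21% rose and 10.7% fell, close to the rises at 7 to 20 nt and the falls at 21 to 50 nt. Beyond 100 nt, 1 of 38 rose and 9 fell (2.63% and 23.7%), with a median of -1.71. The rise was a CAG of *ARP2* at 888 nt, with 5, 0 and 3 reads in *prp18Δupf1Δ* and 1, 0 and 0 in *upf1Δ*. The median beyond 100 nt rests on 16 sites at 0 in every *prp18Δupf1Δ* library and was -0.42 with these at their bound. These 16 sites had junction reads in *upf1Δ* only and so met the pooled minimum of gapped reads through that strain. The count of falls beyond 100 nt was 2 to 6 when single libraries were left out and 3 with DESeq2.

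The sums per class followed the same course. At 2 to 6 nt the sites took 926, 1102 and 1063 RPM in *prp18Δupf1Δ* and 251, 271 and 277 in *upf1Δ*. Beyond 100 nt they took 56.8, 78.8 and 82.1 in *prp18Δupf1Δ* and 164, 179 and 182 in *upf1Δ*. Of the 148 sites beyond 100 nt, 21 to 30 were seen in each *prp18Δupf1Δ* library and 59 to 77 in each *upf1Δ* library. At 21 to 50 and 51 to 100 nt too, every *prp18Δupf1Δ* library was below every *upf1Δ* library (126 to 145 RPM in *prp18Δupf1Δ*, against 172 to 181 in *upf1Δ*, for the first of these classes). Summed as FAnS, the sites at 21 to 50 nt turned the other way and the strains overlapped, with 1.40 to 1.63 in *prp18Δupf1Δ* and 0.874 to 1.46 in *upf1Δ*.

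Distance and letter overlapped, because 15 of the 18 tested GAG sites lay at 2 to 6 nt and all 15 of these rose. Without GAG, 10 of the 24 tested sites at 2 to 6 nt rose and none fell, with a median log2 change of 0.99. They were 5 of 15 AAG sites, 4 of 7 TAG sites and 1 of 2 CAG sites. Of the 3 GAG sites tested beyond 6 nt, those of *CNB1* at 9 nt and *IWR1* at 11 nt rose. The GAG of *IWR1* had 3, 2 and 2 reads in *prp18Δupf1Δ* and 2, 1 and 1 in *upf1Δ*, placed by BBMap alone. Annotated reads of this intron were 11, 12 and 13 in *prp18Δupf1Δ* and 311, 157 and 186 in *upf1Δ*. With unspliced reads in the denominator as well, this GAG was not called (edgeR adjusted p = 0.86). A site at 2 nt is a GAG by necessity, because its first letter is the last of the annotated AG. All 12 tested there rose, but the position of the junction was unique at only 4 of them, and at the others the same bases could be placed on either side of the gap. For such junctions the authors took the position with the 5′ splice site nearest to the consensus, which at these sites is the annotated one.

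Sites at a distance that is a multiple of 3 differed little in these counts from the others. Among the 50 tested sites at such a distance 9 rose and 3 fell (18% and 6%), with a median log2 change of -0.23. Among the 152 at other distances 35 rose and 17 fell (23.0% and 11.2%), with a median of 0.01. Both can be read against 21% higher and 10.7% lower over all alternative junctions. Sites at a multiple of 3 took 420, 574 and 518 RPM in *prp18Δupf1Δ* and 226, 306 and 315 in *upf1Δ*, and the others 1436, 1738 and 1743 in *prp18Δupf1Δ* and 1027, 1010 and 1049 in *upf1Δ*. At a multiple of 3 the reads numbered 525, 517 and 410 in *prp18Δupf1Δ* and 305, 437 and 473 in *upf1Δ*. The AAG of *RPL24B* at 3 nt alone held 250, 209 and 157 of them in *prp18Δupf1Δ* and 16, 18 and 27 in *upf1Δ*. It lies in a 5′ leader before the coding sequence, where the reading frame does not apply. Counted by what happens to the protein, 33 of 141 tested frame-shifting sites rose and 17 fell, and 7 of 36 tested sites that keep the frame without a new stop rose and 3 fell.

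To set the sites against the AG trinucleotides that were available, the 100 nt after the annotated 3′SS of 281 introns were searched for AG with any base before it. They held 1934, of which 341 (17.6%) were among the sites seen. The share was 83.6% at 2 to 6 nt, 52.7% at 7 to 20 nt, 18.1% at 21 to 50 nt and 4.19% at 51 to 100 nt. The first AG after the annotated 3′SS was seen in 153 of 279 introns (54.8%), the next in 30.8%, the third in 15.3% and later ones in 5.71%. Of the 44 sites that rose, 38 used the first AG, and of the 20 that fell, 4 did, against 58 of the 138 not called and 100 of all 202 tested. All 39 tested sites at 2 to 6 nt, 25 of which rose, used the first AG, so order and distance were not separated. Whether a trinucleotide was seen also depends on how many reads its intron has, which the search does not take into account.

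Over both strains together, 20 of 24 GAG at 2 to 6 nt were seen, against 21 of 26 AAG, 2 of 3 CAG and 8 of 8 TAG. These GAG sites were seen largely in *prp18Δupf1Δ*, with 16, 19 and 17 of the 20 in its libraries and 9, 8 and 10 in those of *upf1Δ*, where 6 to 7 of the 8 TAG sites and both CAG sites were seen in each library. Farther away the counts were 10 of 33 GAG at 7 to 20 nt, against 81 of 150 AAG, 29 of 49 CAG and 18 of 30 TAG. From 51 to 100 nt no GAG was seen in 174, which allows a share of up to 1.72%, against 17 of 512 AAG, 13 of 180 CAG and 12 of 137 TAG.

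**Figure D3:**
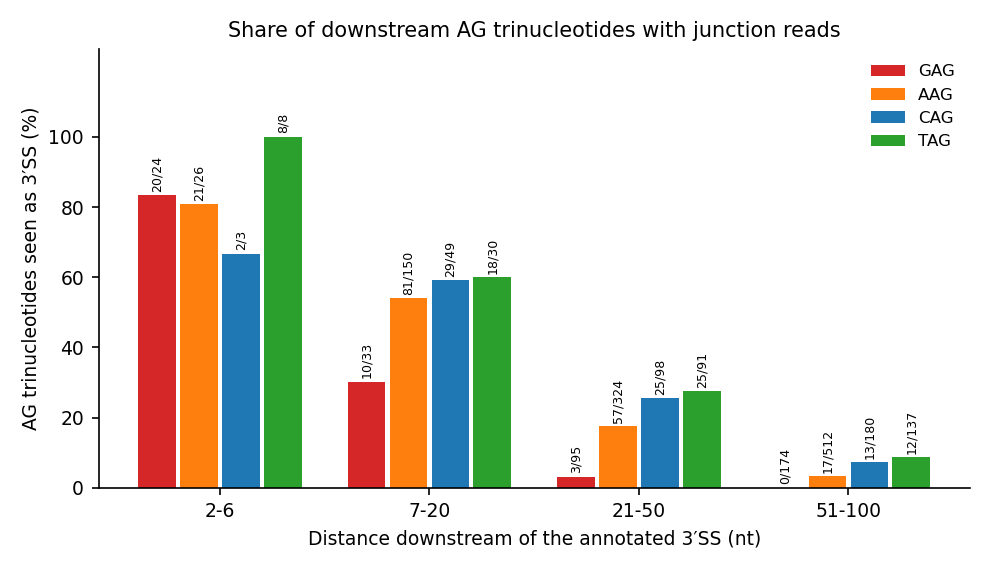
Percentage of the AG trinucleotides in the 100 nt after 281 annotated 3′SS that were seen as a 3′SS (y axis) in 4 distance classes in nt (x axis), by trinucleotide. The fractions above the bars give sites seen over trinucleotides present; the share falls with distance in each trinucleotide, from 20 of 24 to 0 of 174 for GAG.

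Other properties differed little or could not be told from distance. The median distance of the sites that rose was 5 nt, of those that fell 83.5 nt and of those not called 23 nt. The 10 bases before the site held a median of 4 U in sites that rose and 3 in sites that fell, where the annotated 3′SS of the same introns held more, by a median difference of 1 U for sites that rose and 2.5 U for sites that fell. The base after the site was A in 26 of 44 sites that rose (59.1%), 12 of 20 that fell (60.0%) and 76 of 138 not called (55.1%). Ribosomal protein genes held 80 of the tested sites, of which 18 rose and 9 fell (22.5% and 11.2%), and other genes held 122, of which 26 rose and 11 fell (21.3% and 9.02%).

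Large rises were found at GAG sites next to the annotated 3′SS. In *UBC4*, which encodes a ubiquitin-conjugating enzyme, the GAG site at 2 nt had 50, 34 and 28 reads in *prp18Δupf1Δ* and 0, 1 and 0 in *upf1Δ*. FAnS was 0.462 ± 0.053% in *prp18Δupf1Δ* and 0.005 ± 0.008% in *upf1Δ* (SD, n = 3 each), a ratio of 113 over pooled reads with a 95% exact counting interval of 19.9 to 4505 (edgeR adjusted p = 4.8e-12). In *UBC5*, its paralog, the site at the same place had 15, 13 and 8 reads in *prp18Δupf1Δ* and 0, 0 and 1 in *upf1Δ*, with a FAnS of 4.11 ± 0.50% in *prp18Δupf1Δ* and 0.131 ± 0.226% in *upf1Δ* (edgeR adjusted p = 4.7e-06). Neither gene's strains overlapped, and the reads in *upf1Δ* were too few to give the size of the change closely.

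In *ACT1*, the actin gene, the GAG site at 2 nt had 36, 30 and 25 reads in *prp18Δupf1Δ* and 2, 1 and 1 in *upf1Δ*, a log2 change of 5.00 ± 0.52 (SE; edgeR adjusted p = 2.6e-12). In *RPS9B*, for a protein of the small ribosomal subunit, the GAG site at 3 nt had 27, 26 and 18 reads in *prp18Δupf1Δ* and 1, 0 and 1 in *upf1Δ*. Its pooled ratio was 57.4 (95% exact counting interval 15.3 to 483, edgeR adjusted p = 6.7e-10). It keeps the reading frame, whereas splicing at 2 nt shifts it and meets a stop codon after 6 codons in *ACT1* and 13 in *UBC4*. All of the reads at the *ACT1* site were placed by one of the aligners alone (88 gapped reads by BBMap and 19 by STAR), and its position can slide by 3 bases, whereas the position in *RPS9B* is unique.

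The copies of duplicated ribosomal protein genes showed GAG sites at 2 nt in both members of a pair. *RPS19B*, whose product belongs to the small subunit, had 74, 52 and 51 reads in *prp18Δupf1Δ* and 8, 13 and 7 in *upf1Δ*, a log2 change of 3.36 ± 0.37 (edgeR adjusted p = 1.7e-11). *RPS19A* had 35, 41 and 21 reads in *prp18Δupf1Δ* and 4, 3 and 2 in *upf1Δ*, a log2 change of 3.61 ± 0.47 (edgeR adjusted p = 2.1e-09). *RPL37B*, of the large subunit, had 43, 35 and 37 reads in *prp18Δupf1Δ* and 4, 2 and 3 in *upf1Δ*, a log2 change of 3.33 ± 0.50 (edgeR adjusted p = 1.4e-07).

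*RPL37A* had fewer reads, 4, 5 and 5 in *prp18Δupf1Δ* and 3, 0 and 0 in *upf1Δ*, and its call (edgeR adjusted p = 0.013) was lost without *prp18Δupf1Δ* replicate 3, without *upf1Δ* replicate 2 or 3, and with DESeq2 (adjusted p = 0.056). In *SAC6*, for the actin-bundling protein fimbrin, the GAG site at 2 nt had 10, 22 and 25 reads in *prp18Δupf1Δ* and 1, 2 and 3 in *upf1Δ*, a log2 change of 3.22 ± 0.57 (edgeR adjusted p = 5.1e-06). At each of these sites FAnS stayed low, at 0.731 ± 0.028% in *prp18Δupf1Δ* and 0.070 ± 0.022% in *upf1Δ* for *RPS19B* and 2.49 ± 0.86% in *prp18Δupf1Δ* and 0.249 ± 0.110% in *upf1Δ* for *SAC6* (SD, n = 3 each).

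Over all duplicated ribosomal protein genes, 25 gene pairs held a site with the same letters at the same distance in both copies, which gave 32 pairs of sites, and in 13 of these both copies were tested. In 4 of the 13 both copies rose (among them the GAG sites of *RPL37* and *RPS19* and the TAG sites of *RPL23* at 4 nt), in 7 neither was called and in 2 one copy rose. Paralogs share sequence around the site, so they are not independent cases, and reads of near-identical exons may have been placed at either copy.

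AAG sites near the annotated 3′SS included some that took a sizeable share of splicing in *prp18Δupf1Δ*. In *RPL24B*, for a protein of the large subunit, the AAG at 3 nt in the 5′ leader had 250, 209 and 157 reads in *prp18Δupf1Δ* and 16, 18 and 27 in *upf1Δ*. FAnS was 14.9 ± 1.1% in *prp18Δupf1Δ* and 0.687 ± 0.186% in *upf1Δ* (SD, n = 3 each), a log2 change of 4.43 ± 0.29 (edgeR adjusted p = 2.2e-20). In *DID4*, for a subunit of the ESCRT-III complex of endosomes, the AAG at 8 nt had 225, 209 and 150 reads in *prp18Δupf1Δ* and 41, 37 and 22 in *upf1Δ*. Its FAnS was 17.2 ± 1.3% in *prp18Δupf1Δ* and 3.64 ± 1.12% in *upf1Δ*, a log2 change of 2.24 ± 0.29 (edgeR adjusted p = 1.6e-09).

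Other AAG sites that rose were used rarely, with a FAnS in *prp18Δupf1Δ* of 0.163 ± 0.053% in *RPL16B* and 0.061 ± 0.021% in *RPL25* (SD, n = 3 each). In *RPL16B* at 5 nt there were 15, 11 and 18 reads in *prp18Δupf1Δ* and 2, 0 and 1 in *upf1Δ*, a pooled ratio of 23.5 (95% exact counting interval 7.53 to 118). In *RPL25*, also of the large subunit, the AAG at 5 nt had 5, 8 and 7 reads in *prp18Δupf1Δ* and 1, 0 and 0 in *upf1Δ*, a pooled ratio of 25.7 (4.12 to 1067). The edgeR adjusted p was 4.7e-07 in *RPL16B* and 4.1e-04 in *RPL25*.

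*NYV1*, which encodes a vacuolar SNARE, had 31, 29 and 27 reads at its AAG at 4 nt in *prp18Δupf1Δ* and 12, 26 and 18 in *upf1Δ*, a log2 change of 1.27 ± 0.36 (edgeR adjusted p = 0.0042). Its call was lost without *prp18Δupf1Δ* replicate 3 (edgeR adjusted p = 0.052), with DESeq2 (adjusted p = 0.074) and with limma (adjusted p = 0.068). Close AAG sites did not rise without exception. *BMH2*, for a 14-3-3 protein, had 2, 18 and 19 reads at 3 nt in *prp18Δupf1Δ* and 8, 36 and 26 in *upf1Δ* (edgeR adjusted p = 0.38). *RPS10A* had 3, 17 and 8 reads at 3 nt in *prp18Δupf1Δ* and 4, 10 and 4 in *upf1Δ* (edgeR adjusted p = 0.21, and 0.041 without *prp18Δupf1Δ* replicate 1). In FAnS every *prp18Δupf1Δ* library was below every *upf1Δ* library at *BMH2*, and the strains overlapped at *RPS10A*.

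Of the 9 tested sites with a consensus sequence at 2 to 6 nt, 5 rose. The CAG at 4 nt of *TAF14*, for a subunit of general transcription factors, was not called, with 0, 2 and 2 reads in *prp18Δupf1Δ* and 2, 16 and 19 in *upf1Δ* (edgeR adjusted p = 0.17), and it fell by SE. In *SAR1*, for the GTPase that starts COPII coat assembly, the CAG at 4 nt had 117, 123 and 106 reads in *prp18Δupf1Δ* and 50, 40 and 40 in *upf1Δ*. FAnS was 5.35 ± 0.32% in *prp18Δupf1Δ* and 1.62 ± 0.19% in *upf1Δ*, a log2 change of 1.72 ± 0.27 (edgeR adjusted p = 3.4e-07). In *LSM7*, for a subunit of the Lsm ring, the annotated 3′SS is AAG and the CAG at 7 nt had 131, 110 and 99 reads in *prp18Δupf1Δ* and 98, 77 and 90 in *upf1Δ*. Its FAnS was 13.8 ± 0.9% in *prp18Δupf1Δ* and 5.64 ± 0.80% in *upf1Δ*, a log2 change of 1.29 ± 0.26 (edgeR adjusted p = 7.1e-05).

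*PBA1*, for a proteasome assembly chaperone, also has an annotated AAG, and its CAG at 25 nt had 11, 10 and 16 reads in *prp18Δupf1Δ* and 5, 4 and 8 in *upf1Δ*, a log2 change of 2.14 ± 0.49 (edgeR adjusted p = 4.0e-04). At *ARP9*, for a subunit of chromatin remodelling complexes, the CAG at 14 nt had 10, 13 and 7 reads in *prp18Δupf1Δ* and 5, 3 and 7 in *upf1Δ*, placed by BBMap alone. Its call (edgeR adjusted p = 0.017) was lost without *prp18Δupf1Δ* replicate 1 or 2 and without *upf1Δ* replicate 2.

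Among TAG sites, *RPL23A*, for a protein of the large subunit, had 57, 36 and 29 reads at 4 nt in *prp18Δupf1Δ* and 10, 16 and 11 in *upf1Δ*. The log2 change was 2.54 ± 0.34 (edgeR adjusted p = 4.0e-09). Its copy *RPL23B* had 30, 9 and 16 reads in *prp18Δupf1Δ* and 7, 9 and 12 in *upf1Δ*, a log2 change of 1.61 ± 0.46 (edgeR adjusted p = 0.0051, and 0.065 without *prp18Δupf1Δ* replicate 3). The libraries of the strains did not overlap in FAnS at *RPL23A*.

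At 4 nt in *YIL156W-B* the TAG site had 117, 88 and 52 reads in *prp18Δupf1Δ* and 52, 33 and 64 in *upf1Δ*, and with a FAnS of 16.3 ± 1.9% in *prp18Δupf1Δ* and 12.7 ± 3.7% in *upf1Δ* it was not called (edgeR adjusted p = 0.36). A site close to the annotated 3′SS and often used in *upf1Δ* thus could show no detectable change.

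**Figure D4:**
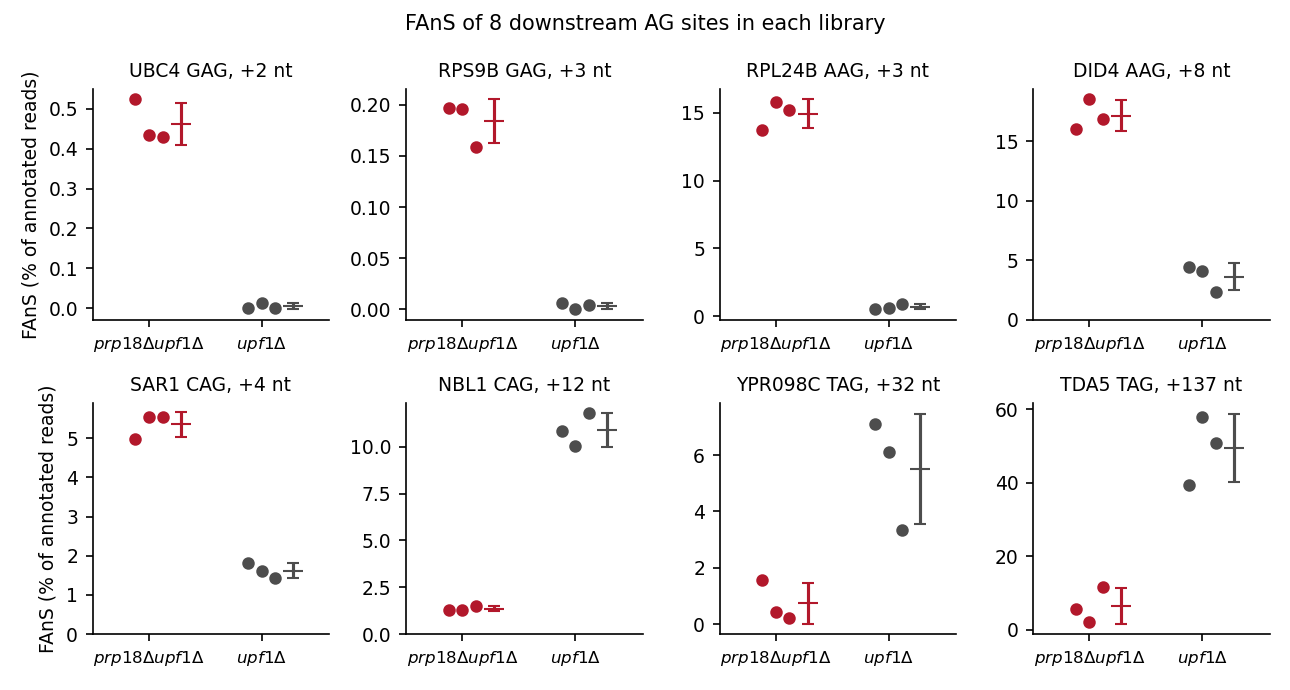
FAnS as a percentage of the annotated junction reads (y axis, a scale for each panel) at 8 sites in each library, *prp18Δupf1Δ* left of *upf1Δ*, with bars at the mean ± SD of 3 libraries. In the 5 panels of *UBC4*, *RPS9B*, *RPL24B*, *DID4* and *SAR1* every *prp18Δupf1Δ* library is higher, and in the 3 panels of *NBL1*, *YPR098C* and *TDA5* every one is lower.

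Of the 20 falls, 9 lay beyond 100 nt, 3 at 51 to 100 nt, 5 at 21 to 50 nt and 3 at 7 to 20 nt. The fall with the most reads was at 12 nt. In *NBL1*, for a subunit of the chromosomal passenger complex, the CAG at 12 nt had 9, 9 and 10 reads in *prp18Δupf1Δ* and 47, 86 and 102 in *upf1Δ*. FAnS was 1.36 ± 0.14% in *prp18Δupf1Δ* and 10.9 ± 0.9% in *upf1Δ*, a log2 change of -2.99 ± 0.35 (edgeR adjusted p = 1.6e-10). The site keeps the reading frame. Every *prp18Δupf1Δ* library lay below every *upf1Δ* library.

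In *TDA5* the sites at 127 and 137 nt both fell. The TAG at 137 nt had 2, 1 and 5 reads in *prp18Δupf1Δ* and 26, 62 and 69 in *upf1Δ*, with a FAnS of 6.42 ± 4.83% in *prp18Δupf1Δ* and 49.4 ± 9.4% in *upf1Δ*, a log2 change of -2.94 ± 0.51 (edgeR adjusted p = 4.1e-06). The AAG at 127 nt had 0, 0 and 1 reads in *prp18Δupf1Δ* and 4, 15 and 13 in *upf1Δ*, a ratio of *prp18Δupf1Δ* over *upf1Δ* of 0.076 (95% exact counting interval 0.0019 to 0.455, edgeR adjusted p = 0.0051). No read at either site was placed by both aligners used, BBMap and STAR.

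*RPS0B*, for a protein of the small subunit, had 2 sites that fell, of the 6 tested in its intron. The CAG at 146 nt had no read in any *prp18Δupf1Δ* library and 15, 13 and 19 in *upf1Δ*, at least 8.31-fold lower when 3 counts are allowed over the 3 *prp18Δupf1Δ* libraries together (edgeR adjusted p = 2.0e-05). The TAG at 95 nt had 0, 0 and 1 reads in *prp18Δupf1Δ* and 5, 9 and 8 in *upf1Δ* (edgeR adjusted p = 0.013, and 0.072 and 0.079 without *prp18Δupf1Δ* replicates 1 and 2). The FAnS of the site at 146 nt in *upf1Δ* was 0.111 ± 0.033%, so that a small share of splicing was concerned.

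The CAG at 41 nt of *RPS21A* had 5, 3 and 1 reads in *prp18Δupf1Δ* and 24, 21 and 14 in *upf1Δ*, a log2 change of -3.06 ± 0.56 (edgeR adjusted p = 1.3e-05). In *YPR098C* the TAG at 32 nt had 5, 2 and 1 reads in *prp18Δupf1Δ* and 21, 27 and 14 in *upf1Δ*, a log2 change of -2.95 ± 0.55 (edgeR adjusted p = 1.3e-05). In both genes every *prp18Δupf1Δ* library had a lower FAnS than every *upf1Δ* library.

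*HPC2*, for a subunit of the HIR histone chaperone complex, had 1, 1 and 0 reads at its CAG at 72 nt in *prp18Δupf1Δ* and 6, 13 and 14 in *upf1Δ*, a pooled ratio of 0.099 (95% exact counting interval 0.011 to 0.385, edgeR adjusted p = 0.0013). *ERV1*, for a sulfhydryl oxidase of the mitochondrial intermembrane space, had 1, 0 and 1 reads at its AAG at 67 nt in *prp18Δupf1Δ* and 17, 2 and 13 in *upf1Δ*, a pooled ratio of 0.080 (0.0093 to 0.314, edgeR adjusted p = 0.0010). The spread within *upf1Δ* was wide at *ERV1*.

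Falls to 0 reads with calls near the threshold were those of *RPL22B* at 246 nt (0 reads in *prp18Δupf1Δ* and 7, 11 and 6 in *upf1Δ*, edgeR adjusted p = 0.045) and *RPS18B* at 146 nt (0 reads in *prp18Δupf1Δ* and 4, 2 and 3 in *upf1Δ*, edgeR adjusted p = 0.047). By the same bound the site of *RPL22B* was at least 1.45-fold lower and that of *RPS18B* at least 1.67-fold lower. The call was lost in *RPS18B* without any 1 of the 6 libraries and in *RPL22B* without any but *upf1Δ* replicate 3.

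In 3 introns a site near the annotated 3′SS rose while a farther one in the same intron fell, so that both are divided by the same annotated reads. The order did not extend to every site of these introns, as *RPS19B* shows. There the GAG at 2 nt rose and the CAG at 11 nt had 9, 2 and 4 reads in *prp18Δupf1Δ* and 38, 30 and 38 in *upf1Δ*, a log2 change of -2.10 ± 0.46 (edgeR adjusted p = 2.2e-04). Its AAG at 17 nt, farther out, rose on few reads, 1, 5 and 1 in *prp18Δupf1Δ* and 0, 1 and 0 in *upf1Δ* (edgeR adjusted p = 0.044, and 0.42 without *prp18Δupf1Δ* replicate 2). In *RPL23A* the TAG at 4 nt rose and the CAG at 44 nt had 2, 1 and 0 reads in *prp18Δupf1Δ* and 11, 10 and 10 in *upf1Δ* (edgeR adjusted p = 0.011, and 0.056 without *prp18Δupf1Δ* replicate 3). In *UBC4* the GAG at 2 nt rose and an AAG at 259 nt had 0 reads in *prp18Δupf1Δ* and 3, 0 and 5 in *upf1Δ* (edgeR adjusted p = 0.022), at least 2.64-fold lower, and its call was lost without any 1 library but *upf1Δ* replicate 2. FAnS overlapped between the strains there, at 0 in the *upf1Δ* replicate 2 too.

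FAnS is a ratio to the annotated junction, so the same sites were also tested by splicing efficiency (SE), in which the reads of a junction are divided by annotated plus unspliced reads. The annotated splicing of their introns fell in 169 of the 195 host introns tested and rose in none, with a median log2 change of the spliced to unspliced odds of -1.96. Over all 272 annotated introns, which include these hosts, 222 fell (81.6%), with a median of -1.91. The hosts were not compared with the other introns. By SE, 31 of the 202 sites rose and 34 fell (15.3% and 16.8%), against 16.7% and 13.8% of all alternative junctions, with a median log2 change of -0.68.

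Of the 44 sites that rose in FAnS, 31 rose in SE as well, 11 were not called and 2 fell. All 20 that fell in FAnS fell in SE, and 12 more fell in SE alone. By SE, 14 of the 18 tested GAG sites and 22 of the 39 sites at 2 to 6 nt rose, and 2 at 2 to 6 nt fell (the CAG of *TAF14* and an AAG of *USV1* at 5 nt), with unspliced reads in the denominator as well. At TAG, CAG and AAG sites the medians of SE were -0.82, -0.84 and -0.80.

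The sites that fell in SE but rose in FAnS were a CAG of *MTR2* and an AAG of *IWR1*, whose FAnS overlapped between the strains and whose rise was lost without *prp18Δupf1Δ* replicate 1 (edgeR adjusted p = 0.61). *MTR2*, for an mRNA export factor, has a CAG at 9 nt in its 5′ leader that took more reads than the annotated 3′SS in both strains, 95, 106 and 86 in *prp18Δupf1Δ* and 68, 94 and 102 in *upf1Δ*. The annotated site had 19, 20 and 16 reads in *prp18Δupf1Δ* and 31, 46 and 57 in *upf1Δ*. FAnS was 522 ± 20% in *prp18Δupf1Δ* and 201 ± 20% in *upf1Δ*, a log2 change of 1.39 ± 0.34 (edgeR adjusted p = 8.9e-04), whereas SE changed by -0.82 on the log2 scale (edgeR adjusted p = 0.014, and 0.21 with DESeq2).

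Sites that were used often in both strains included the TAG at 29 nt of *MCR1*, which encodes a mitochondrial cytochrome b5 reductase, with 38, 18 and 22 reads in *prp18Δupf1Δ* and 11, 18 and 17 in *upf1Δ*. Its FAnS was 81.3 ± 5.3% in *prp18Δupf1Δ* and 65.7 ± 29.2% in *upf1Δ* (edgeR adjusted p = 0.48). *TAN1*, for a tRNA acetylation factor, had 19, 24 and 25 reads at its AAG at 7 nt in *prp18Δupf1Δ* and 56, 63 and 79 in *upf1Δ*. There FAnS was 14.1 ± 0.5% in *prp18Δupf1Δ* and 15.2 ± 1.5% in *upf1Δ* (edgeR adjusted p = 0.85), while SE changed by -1.23 on the log2 scale (edgeR adjusted p = 0.0019).

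**Figure D5:**
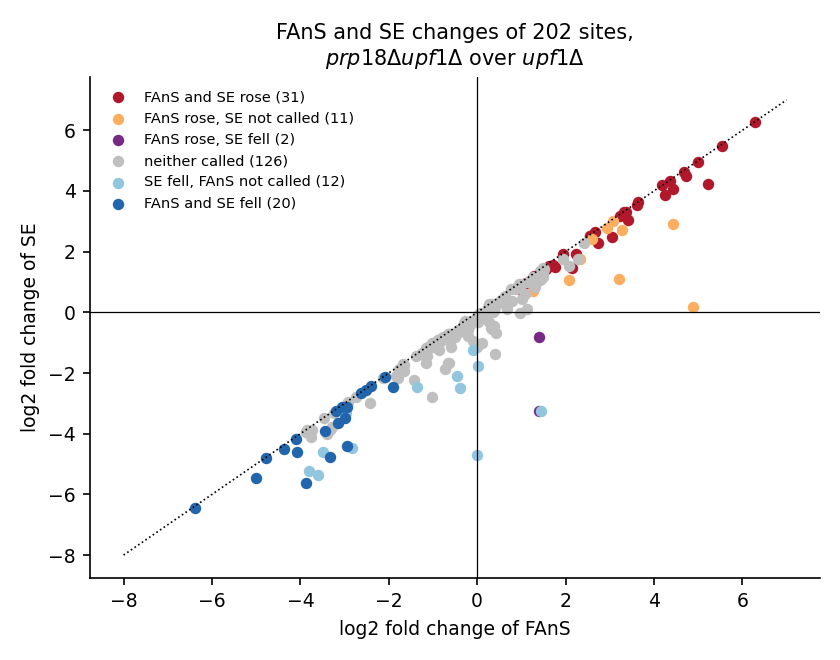
The log2 fold change of SE (y axis) against that of FAnS (x axis) in *prp18Δupf1Δ* over *upf1Δ* for the 202 tested sites, coloured by the calls of both measures, with the number of sites in brackets and a dotted line where the changes are equal. All but 1 point lie below the line, and 31 sites rose and 20 fell by both measures.

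The other alternative 3′SS give these counts a frame. Upstream AG sites rose in 42 of the 88 tested and fell in 14, with a median log2 change of 1.43. Among them 15 of 20 GAG sites rose and none fell, beside 17 of 18 downstream. Downstream sites without AG rose in 14 of 68 and fell in none, with a median of 0.73, and upstream sites without AG rose in 80 of 204 and fell in 9. These counts describe the classes, and the difference between them was not tested.

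The way the reads were aligned bears on the closest sites. Of the gapped reads at the 494 sites, 75% were placed by both aligners, 14.5% by BBMap alone and 10.5% by STAR alone. At GAG sites BBMap alone placed 21%. The sites that rose without any read placed by both included those of *ACT1*, *RPL37B*, *RPL16B*, *RPL25* and *ARP9*. The GAG sites of *RAD14* and *IWR1* and the TAG site of *RPL23A* at 4 nt were also among them. STAR placed reads at 14 of the 18 tested GAG sites, at 38 of the 44 sites that rose and at all 20 that fell. The part of the aligners in these rises was not tested. With only the junctions whose position is unique, 18 of 19 sites that had risen and were still tested kept their call, and 10 of 11 that had fallen.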

How the data were processed

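The deposited tables, 1 per library, were made by the authors from stranded mRNA libraries trimmed with cutadapt 1.18 and aligned to R64 with STAR 2.7.0d and BBMap. Each count of junction reads was deposited raw, neither normalized nor pooled. The deposited unspliced reads are an estimated count, made by the authors as the reads across both unspliced sites divided by 2. The deposited SE of annotated junctions is a fraction, and the deposited FAnS and SE of alternative junctions are each a ratio that the authors made from these counts. Recomputed from the reads, FAnS matched in 12550 of 12550 entries and SE in 12588 of 12588 (tolerance 1e-06), and both splice sites of all 5274 junctions matched R64.

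Junctions were tested when the overhang rule held, at least 50% of reads had no mismatch within 10 bp, and at least 6 gapped reads covered them over the 6 libraries. The tests used the junction reads from which FAnS is made. Each was edgeR's quasi-likelihood test (edgeR 4.0.16, R 4.3.3) on junction and annotated reads with library terms, and adjusted p values are Benjamini-Hochberg values. On simulated counts for the 884 junctions it called 29 of 100 changed 4-fold, 7 of 100 changed 2-fold and 1 of 684 unchanged. Annotated introns needed 10 reads in all and 1 in every library. Intervals are exact Clopper-Pearson intervals of 95% and, like bounds from 3 counts, cover counting error only. DESeq2 1.42.0, limma 3.58.1 with 0.5 added to counts, other filters, a replicate block and leaving out libraries were tried as alternatives. Values were computed with python 3.11.15, pandas 2.3.3 and scipy 1.17.1.

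Members, classes and rules were chosen with earlier results of these data known. Named are, for each trinucleotide, the 3 largest rises and falls past the threshold with separate strains and at least 20 reads, the 6 highest FAnS per strain, up to 10 tested sites at 2 or 3 nt, the 6 with the most reads, called sites of genes that the paper names, and introns with at least 4 tested sites. The sites of *UBC5*, *RPL37A* and *RPL23B*, the farther sites of *RPS19B*, *RPL23A* and *UBC4*, the GAG sites of *ATG38* and *CNB1*, the AAG of *RPS19B* and the sites of *ARP2*, *TAF14* and *USV1* were chosen after their values were seen. Deviations from the strain mean of same-numbered libraries correlated at 0.29, 0.13 and 0.07 over 391 alternative junctions, so the numbers were not taken to pair them, and at 0.58, 0.30 and 0.38 over 272 annotated introns. Over these introns replicate 1 of each strain correlated at -0.41 to -0.52 with replicates 2 and 3 of the other. Replicates 2 and 3 correlated across strains at 0.34 and 0.37. Deviations from a mean of 3 libraries cancel out within each strain, so these values are tied to the 0.58 and are not separate evidence. By that correlation replicate 1 stood apart in both strains, and the cause was not tested. Some named sites are not reported here.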

Additional observations from a re-analysis of the deposited data

How the results depend on the processing

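All 44 rises and 20 falls that were still tested kept their direction under every alternative tried, but many had few reads and lost their call. The numbers of rises and falls of FAnS called among the sites (44 and 20) were 29 and 12 with no minimum of reads, 18 and 10 with unique positions only, 28 and 11 with DESeq2, 39 and 16 with the replicate block, and 31 to 37 and 12 to 17 without each library in turn (27 and 9 without replicate 1 of both strains). Of the 20 falls themselves, 11 to 16 kept their call without each library and 8 without replicate 1 of both strains. GAG rises (17) numbered 11 with at least 20 reads, 7 with unique positions, 16 with the replicate block and 14 to 15 without each library. Rises at 2 to 6 nt (25) numbered 8 with unique positions and 20 to 24 without each library. Falls beyond 100 nt (9) numbered 3 without a read minimum, with unique positions or with DESeq2, 5 with at least 20 reads, without the mismatch filter or with the replicate block, and 2 to 6 without each library. SE rises and falls (31 and 34) were 20 and 25 with DESeq2, 28 and 30 with the replicate block, 22 to 28 and 21 to 30 without each library, and 18 and 20 without replicate 1 of both strains. Host introns that fell (169) were 142 to 185 without each library and 184 with the block.

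The log2 ratio of summed FAnS was 0.73 over all sites, and *MTR2* made up a large part of the sums in both strains. Over all annotated reads the ratio was 0.12 in place of 1.06 for CAG, 0.84 in place of 0.39 for AAG and 1.95 in place of 0.54 at 2 to 6 nt. The sums then weight introns by expression. Beyond 100 nt the log2 ratio of summed FAnS was -1.86, and -1.13 without the site with the most reads, the TAG of *TDA5*. For TAG it ran from -0.15 to 0.26 without each library. Among single sites, the log2 change of FAnS at *MCR1* was -0.054 without replicate 1 of both strains. That of SE ran from -0.255 to 0.325 at the *RAD14* CAG and from -0.222 to 0.252 at its TAG without each library, against 0.102 and -0.034 with all. At *YIL156W-B* it was -0.0027 with all, 0.012 with DESeq2, 0.0029 with the replicate block and -0.163 to 0.212 without each library. None of these site values had passed the threshold, and the causes were not tested. Of 90 FAnS and SE results of named sites, 55 kept their direction and call under all alternatives.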

Other observations

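In 6 introns at least 4 downstream AG sites were tested. The intron of *RPS0B* held 13 sites, of which 6 were tested, 2 fell and none rose. *RPL22B*, whose product belongs to the large ribosomal subunit, held 6, of which 5 were tested and 1 fell. *RPS21A*, for a protein of the small subunit, held 5, of which 4 were tested and 1 fell. In *ARF2*, for an ADP-ribosylation factor, 2 of 4 tested sites rose, the GAG at 2 nt with 8, 10 and 5 reads in *prp18Δupf1Δ* and 1, 2 and 0 in *upf1Δ*, and the TAG at 32 nt with 10, 5 and 3 reads in *prp18Δupf1Δ* and 3, 0 and 1 in *upf1Δ*. The call of the TAG (edgeR adjusted p = 0.016) was lost without *prp18Δupf1Δ* replicate 1 (0.16), without *upf1Δ* replicate 2 (0.082) or 3 (0.052), and with DESeq2 (0.079), and its log2 change ran from 1.77 to 3.57 without each library.

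*RAD14*, for a nucleotide excision repair protein, held 10 sites, the second most of these introns. Of its 4 tested sites the GAG at 3 nt rose, with 1, 3 and 2 reads in *prp18Δupf1Δ* and none in *upf1Δ*, at least 5.27-fold higher when 3 counts are allowed over the *upf1Δ* libraries together. All gapped reads at this GAG were placed by BBMap alone, and its position can slide by 1 base. The CAG of *RAD14* at 11 nt had a FAnS of 15 ± 6.0% in *prp18Δupf1Δ* and 6.78 ± 2.83% in *upf1Δ*, and its TAG at 25 nt 20.4 ± 2.5% in *prp18Δupf1Δ* and 10.4 ± 3.4% in *upf1Δ* (SD, n = 3 each), and neither passed the threshold (edgeR adjusted p = 0.11 and 0.10). In *IWR1*, for a factor of RNA polymerase II import, the AAG at 19 nt had 17, 2 and 8 reads in *prp18Δupf1Δ* and 70, 50 and 56 in *upf1Δ*, against 11, 12 and 13 annotated reads in *prp18Δupf1Δ* and 311, 157 and 186 in *upf1Δ*. It fell in SE. Its FAnS was 155, 16.7 and 61.5% in *prp18Δupf1Δ* and 22.5, 31.8 and 30.1% in *upf1Δ*, so that the strains overlapped, and the call of a rise (edgeR adjusted p = 0.023, log2 change 1.41) was lost without *prp18Δupf1Δ* replicate 1 (log2 change 0.54, adjusted p = 0.61), *prp18Δupf1Δ* replicate 3 (0.12) or *upf1Δ* replicate 1 (0.092).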
